A study of Mus musculus with 16 samples.

Results

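Transcripts of 9 citric acid cycle enzymes were measured by bulk RNA-seq in primary mouse hepatocytes. The genes were Cs, Idh2, Idh3a, Idh3b, Idh3g, Ogdh, Dlst, Fh1 and Mdh2. They were chosen by symbol, as enzymes of the cycle other than those that make or use succinate, and were 9 of the 55450 genes in the count table. The hepatocytes came from wild-type male mice of 8 to 12 weeks, the age range that the study's methods give for its mice, and 4 treatments were compared in 16 libraries, 4 each, with 1 library of every treatment under each replicate letter, A to D. Untreated cells were cultured in serum-containing medium with insulin, transferrin and selenium, which every group received. Itaconate cells were given 10 mM sodium itaconate. Lipid cells were given a chemically defined mixture of fatty acids and cholesterol diluted 10-fold. Lipid + itaconate cells were given both at the same doses, and each treatment lasted overnight. The sources used here do not state whether the letters stand for separate mice or cultures, so p-values measure only the spread between these libraries. Cultured hepatocytes are kept apart from most other cells of the liver, and only transcripts were measured, not enzyme protein, activity or flux.

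The citric acid cycle is the mitochondrial pathway in which acetyl groups from carbohydrate, fatty acids and amino acids are oxidized and the released electrons are passed to the respiratory chain. Citrate synthase joins acetyl-CoA with oxaloacetate, isocitrate dehydrogenase and the 2-oxoglutarate dehydrogenase complex release carbon dioxide, and fumarase and malate dehydrogenase return the carbon skeleton to oxaloacetate. In the liver the cycle also supplies citrate for lipid synthesis and oxaloacetate for gluconeogenesis. Itaconate is made from a cycle intermediate, cis-aconitate, and is known as an inhibitor of succinate dehydrogenase. The comparisons addressed how itaconate and an external lipid load, alone and together, alter hepatocyte transcripts.

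Sequences before the start sites of 4 of the genes are shown as examples of either direction with lipid: Idh2, Cs and Fh1 were called higher and Idh3b was called lower in at least 1 lipid comparison. They are from RefSeq (build GRCm38.p6), read 5′ to 3′ on the strand of the gene, and end before the first annotated exon. Capitals mark matches to the SP motif GGGCGG on either strand.
Idh2 (chr7:80115393-80115600, minus strand): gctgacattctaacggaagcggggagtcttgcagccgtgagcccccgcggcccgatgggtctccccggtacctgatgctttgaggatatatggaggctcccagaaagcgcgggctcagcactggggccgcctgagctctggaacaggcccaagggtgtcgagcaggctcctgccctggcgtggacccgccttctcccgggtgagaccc
Cs (chr10:128337477-128337726, plus strand): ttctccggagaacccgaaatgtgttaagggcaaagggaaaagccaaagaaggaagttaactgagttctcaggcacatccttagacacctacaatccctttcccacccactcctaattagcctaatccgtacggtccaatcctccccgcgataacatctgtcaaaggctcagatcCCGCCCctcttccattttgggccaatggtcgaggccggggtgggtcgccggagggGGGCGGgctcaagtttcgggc
Fh1 (chr1:175625636-175625885, minus strand): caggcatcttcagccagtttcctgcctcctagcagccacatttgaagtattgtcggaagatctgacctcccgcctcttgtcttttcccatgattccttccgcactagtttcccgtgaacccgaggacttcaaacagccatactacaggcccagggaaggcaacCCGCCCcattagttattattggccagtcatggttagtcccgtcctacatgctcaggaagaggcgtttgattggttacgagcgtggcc
Idh3b (chr2:130284548-130284701, minus strand): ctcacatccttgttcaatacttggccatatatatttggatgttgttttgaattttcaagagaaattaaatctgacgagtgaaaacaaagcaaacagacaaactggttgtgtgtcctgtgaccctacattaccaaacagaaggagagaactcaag
Promoter windows, from 250 bases before to 50 bases after the start, were matched for 8 of the 9 genes (not Idh3a). The SP motif was found in 6 of the 8 windows (not in Idh3b or Idh3g) and in 35.7% of all 32851 windows in the table. In the Idh2 window it lay beyond the stretch printed. An ETS motif (CCGGAAG) was found in the windows of Idh3b, Idh3g and Dlst, and in 8.86% of all windows. A YY1 motif (AAGATGG) was found in the Idh3g window and in 6.34% of all windows. Neither an NRF1 motif (CGCATGCG, in 1.87% of all windows) nor an ERR motif (AAGGTCA, in 4.72%) was found in the 8 windows. Motifs were searched on both strands, no motif contains another, and a match describes letters only.

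All 9 genes were measured well above the filter on low values, a mean of at least 1 count in each 1000000 counts of a library (CPM), which 11675 genes passed. Their counts ranged from 590 (Idh3a) to 9448 (Mdh2) per library, of library totals of 22346049 to 35512004, and together they made up 0.0873% to 0.109% of each library. Per kilobase of the principal transcript, Mdh2, the malate dehydrogenase of mitochondria, had the highest level in untreated cells, with 176 ± 15.9 CPM per kb (SD, n = 4). Idh3b, a regulatory subunit of NAD-dependent isocitrate dehydrogenase, followed with 83.2 ± 1.05 CPM per kb, and the 4 libraries of each did not overlap. Cs (53.8 ± 3.96 CPM per kb) and Dlst (50.7 ± 0.553 CPM per kb) overlapped, and both lay above Ogdh (29.2 ± 0.744 CPM per kb). Fh1 (25.3 ± 2.12 CPM per kb) and Idh3g (22.9 ± 1.01 CPM per kb) overlapped. Idh2 (16.5 ± 1.94 CPM per kb) and Idh3a (12.2 ± 0.705 CPM per kb) were the lowest and did not overlap. In lipid-treated cells Idh2 reached 21.1 ± 0.586 CPM per kb and overlapped Idh3g at 21.2 ± 1.48 CPM per kb. The order depended on the length used: per kilobase of all annotated exons, Dlst was the sixth in untreated cells, with 14.7 ± 0.160 CPM per kb, while Mdh2, Idh3b and Cs remained the highest and Idh3a the lowest.

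**Figure D1:**
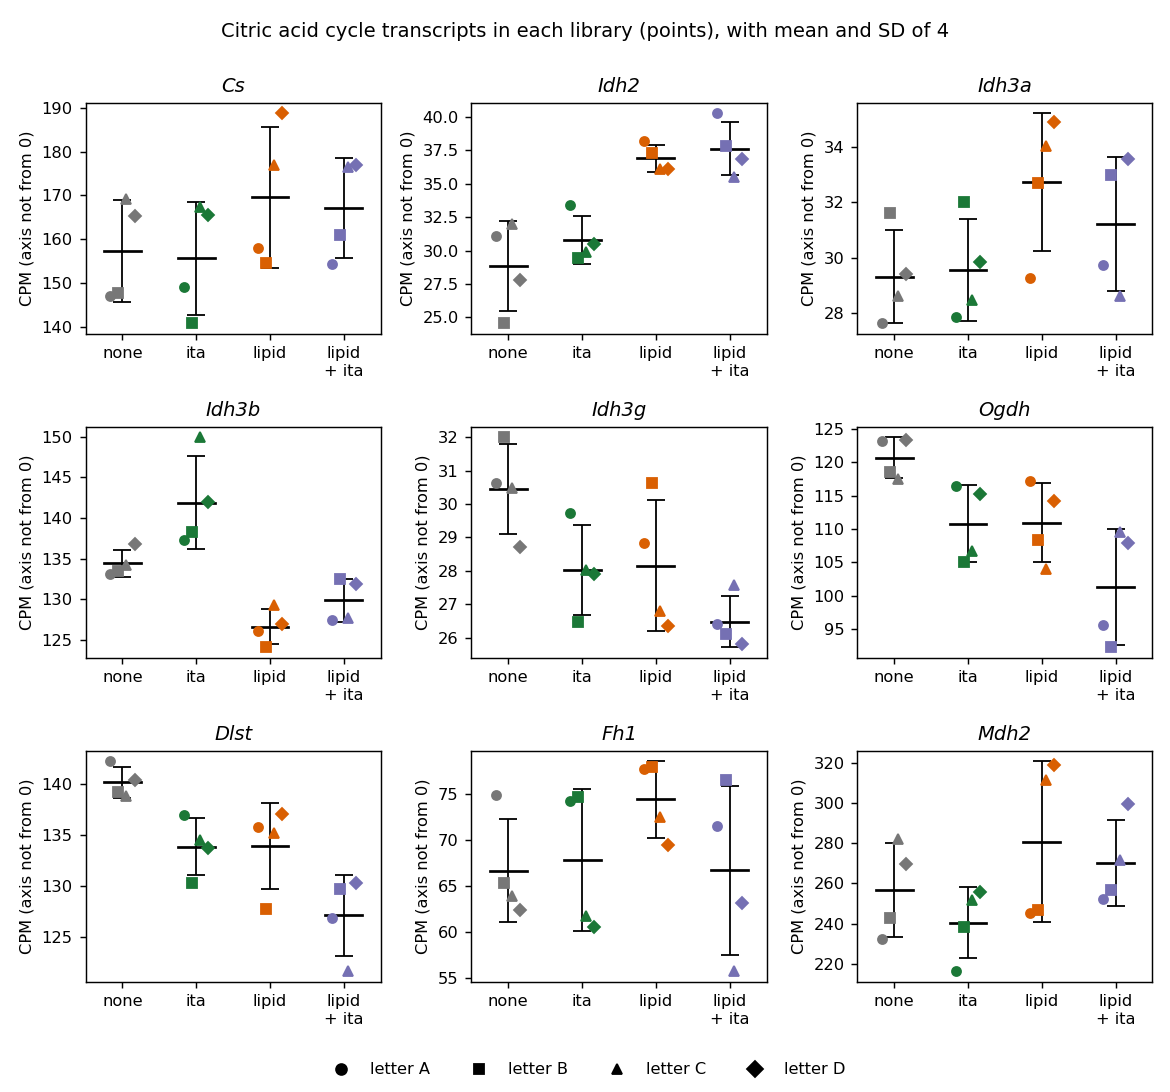
Level of each transcript (y axis, CPM, not starting at 0) in the 4 treatments (x axis), with 1 point per library, shaped by replicate letter, and the mean and SD of 4. All 8 libraries with lipid lie above all 8 without it for Idh2, from 35.5 CPM against at most 33.4 CPM, whereas lipid and untreated libraries overlap for Cs, Idh3a, Fh1 and Mdh2.

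Lipid alone raised 5 of the 9 transcripts and lowered none of them at an adjusted p under 0.05. Those raised were Idh2, Idh3a, Fh1, Mdh2 and Cs, by 7.72% (Cs) to 28.2% (Idh2). The other 4, Idh3b, Idh3g, Ogdh and Dlst, had log2 fold changes of −0.066 to −0.12, lower in 4 of 4 letters each, and did not pass the test. Of all 11675 genes tested, 47.5% were called in this comparison, 23.8% higher and 23.7% lower. The count of 5 of 9 is thus near the share of all genes, and the median log2 fold change was 0.11 over the 9 genes and 0.0047 over all genes. With lipid in the presence of itaconate, 4 of the 9 were called. Idh2, Mdh2 and Cs rose and Idh3b fell, against 47.0% of all genes, of which 23.5% were higher and 23.5% lower. The median log2 fold change there was −0.024 over the 9 genes and 0.0041 over all genes. The lipid comparisons without and with itaconate share no library, and Idh2, Mdh2 and Cs were higher in all 4 letters in each. Without the replicate letter in the model 1 of the 9 (Idh2) was called with lipid alone and 2 (Idh2 and Idh3b) in the presence of itaconate. The count with lipid alone also rested on single libraries: it was 1 (Idh2) without untreated D or without lipid D, 2 without lipid C and 3 without untreated B. The share of all genes called under these settings is not given here, so a change particular to the 9 is not shown.

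Itaconate changed none of the 9 at this threshold, either alone (0 of 9, against 4.91% of all genes) or on top of lipid (0 of 9, against 2.58%). edgeR, DESeq2 and limma each called 0 in both comparisons. At an unadjusted p under 0.05 there were 3 of 9 alone (Ogdh, Idh3b and Idh3g), against 21.3% of all genes, and 2 of 9 on top of lipid (Fh1 and Ogdh), against 17.3%. The median log2 fold change over the 9 was −0.016 alone and −0.069 on top of lipid, beside −0.0019 and −0.00013 over all genes. The interaction, the difference between the itaconate effects with and without lipid, was called for 0 of 9 by the same tools, and for 0.00857% of all genes. Fh1 had an unadjusted p under 0.05 for it, as did 8.60% of all genes.

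**Figure D2:**
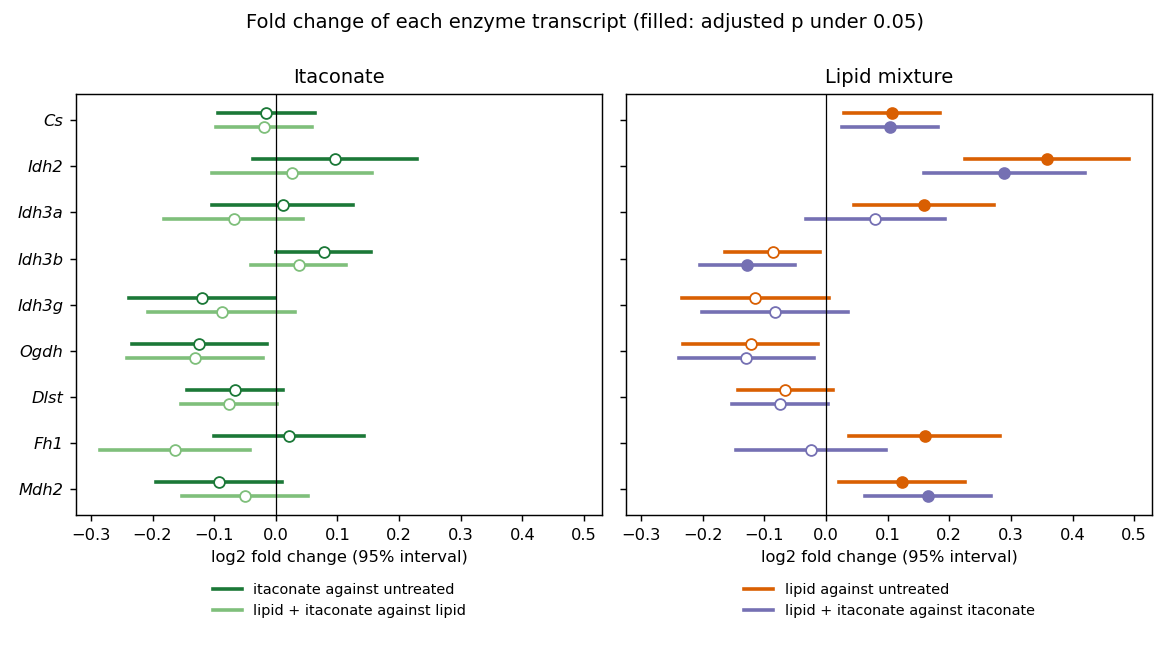
Log2 fold change (x axis) of each transcript (y axis) for itaconate (left) and lipid (right), with 95% intervals; filled points have an adjusted p under 0.05. Only lipid comparisons hold filled points, with Idh2 at 0.36 without and 0.29 with itaconate, and Idh3b at −0.13 with itaconate.

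Citrate synthase, encoded by Cs (ENSMUSG00000005683.8, chr10:128337734-128362479, plus strand, with all coordinates on GRCm38), makes the entry reaction of the cycle. Cs read 147, 148, 169 and 165 CPM in untreated libraries A to D and 158, 155, 177 and 189 CPM in the lipid libraries. With itaconate it read 149, 141, 167 and 165 CPM, and with both 154, 161, 176 and 177 CPM. Libraries C and D were above A and B in every group, so the groups overlapped although each lipid library exceeded its own letter. Cs rose with lipid by 0.11 on the log2 scale (SE 0.037, adjusted p = 0.0258), or 7.72%, and with lipid in the presence of itaconate by 0.10 (SE 0.037, adjusted p = 0.0299). Itaconate gave log2 fold changes of −0.016 alone (95% interval −0.094 to 0.063, adjusted p = 0.842) and −0.019 with lipid (−0.097 to 0.059, adjusted p = 0.837).

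Idh2 (ENSMUSG00000030541.16, chr7:80094846-80115392, minus strand) encodes the NADP-dependent isocitrate dehydrogenase of mitochondria, which also supplies reducing power there. It read 31.1, 24.6, 32.0 and 27.8 CPM in untreated and 33.4, 29.4, 29.9 and 30.5 CPM in itaconate libraries A to D. With lipid it read 38.2, 37.3, 36.1 and 36.1 CPM, and with both 40.3, 37.9, 35.5 and 36.9 CPM. Lipid libraries thus lay above their controls without overlap in both comparisons, as 32.5% of all genes did, in either direction, for lipid against untreated and 31.4% for lipid + itaconate against itaconate. The log2 fold change with lipid was 0.36 (SE 0.062, adjusted p = 0.000244), an increase of 28.2%. In the presence of itaconate it was 0.29 (SE 0.061, adjusted p = 0.00134), an increase of 22.2%. The interaction was −0.069 (95% interval −0.26 to 0.12, adjusted p = 0.873), so that a difference between these increases was not detected. It ran from −0.14 without untreated library C to −0.00045 without untreated library B. Idh2 had the greatest fold change of the 9 in both lipid comparisons.

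The NAD-dependent isocitrate dehydrogenase is built from a catalytic subunit, encoded by Idh3a (ENSMUSG00000032279.11, chr9:54586334-54604661, plus strand), and regulatory subunits, encoded by Idh3b and Idh3g. Idh3a read 27.6, 31.6, 28.6 and 29.4 CPM in untreated and 29.2, 32.7, 34.1 and 34.9 CPM in lipid libraries A to D. It read 27.9, 32.0, 28.5 and 29.9 CPM with itaconate and 29.7, 33.0, 28.6 and 33.6 CPM with both. The rise with lipid was greater in letters C and D than in A and B, and the groups overlapped. Its log2 fold change with lipid was 0.16 (SE 0.054, adjusted p = 0.0229), and in the presence of itaconate it was 0.080 (SE 0.053, adjusted p = 0.233), higher in 4 of 4 letters but past no threshold.

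Idh3b (ENSMUSG00000027406.12, chr2:130279309-130284547, minus strand) differed in the other direction. It read 133, 133, 134 and 137 CPM in untreated and 126, 124, 129 and 127 CPM in lipid libraries A to D, with no overlap. It read 137, 138, 149.9 and 142 CPM with itaconate and 127, 132, 128 and 132 CPM with both, again without overlap. The lowest mean was that of the lipid cells, 127 ± 2.17 CPM (SD, n = 4), and the highest that of the itaconate cells, 142 ± 5.72 CPM. Idh3b fell with lipid in the presence of itaconate (log2 fold change −0.13, SE 0.036, adjusted p = 0.00915), and without itaconate its log2 fold change was −0.086 (SE 0.036, adjusted p = 0.0614). Under itaconate alone its libraries lay above the untreated ones without overlap, but the log2 fold change of 0.078 did not pass (SE 0.036, adjusted p = 0.231). Its last 5 exonic bases are shared with Nop56 on the opposite strand.

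Idh3g (ENSMUSG00000002010.17, chrX:73778963-73786897, minus strand) was low in every group, from 25.8 to 32.0 CPM over the 16 libraries. Its group means were 30.5 ± 1.35 CPM untreated, 28.0 ± 1.34 CPM with itaconate, 28.2 ± 1.97 CPM with lipid and 26.5 ± 0.768 CPM with both (SD, n = 4). It was lower in 4 of 4 letters with lipid (log2 fold change −0.11, adjusted p = 0.105) and with itaconate (−0.12, adjusted p = 0.233), and neither passed. Without itaconate library B the latter was −0.068.

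Because subunits of 1 enzyme are measured in the same library, their ratio is free of library scaling. These ratios were looked at after the levels had been seen. The log2 ratio of Idh3a to Idh3b was −2.20 ± 0.083 (SD, n = 4) in untreated and −1.95 ± 0.106 in lipid cells, −2.27 ± 0.119 in itaconate and −2.06 ± 0.085 in lipid + itaconate cells. It was higher with lipid in 8 of 8 same-letter pairs of libraries, by 0.23 on average (0.11 to 0.36). An exact two-sided sign-flip permutation test over the 8 pairs gave p = 0.0078, the smallest that its 256 arrangements allow, and 0.0312 after Benjamini-Hochberg adjustment over 8 ratio tests. The 8 pairs come from 4 letters, so they are not fully independent. With the 4 letters as units only 16 arrangements exist and the smallest p would be 0.125, so no ratio could pass. The permutation p-values given here thus hold only if the 8 pairs are taken as separate. The ratio of Idh3a to Idh3g was also higher with lipid in 8 of 8 pairs, by 0.22 (permutation adjusted p = 0.0312). The ratio of the regulatory subunits, Idh3b to Idh3g, had a mean lipid difference of −0.0086 (−0.21 to 0.13, permutation adjusted p = 0.805). With itaconate it was higher in 7 of 8 pairs, by 0.16, and the ratio of Idh3a to Idh3b was lower in 7 of 8, by 0.085 (both permutation adjusted p = 0.0312). With a letter left out 6 pairs remain, for which the smallest p is 0.031 before adjustment, and within libraries with, or without, the other treatment 4 pairs remain, for which it is 0.125. The test cannot or can hardly pass at these sizes, so only the values are given: the lipid difference of Idh3a to Idh3b was between 0.19 and 0.26 in these subsets.

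**Figure D3:**
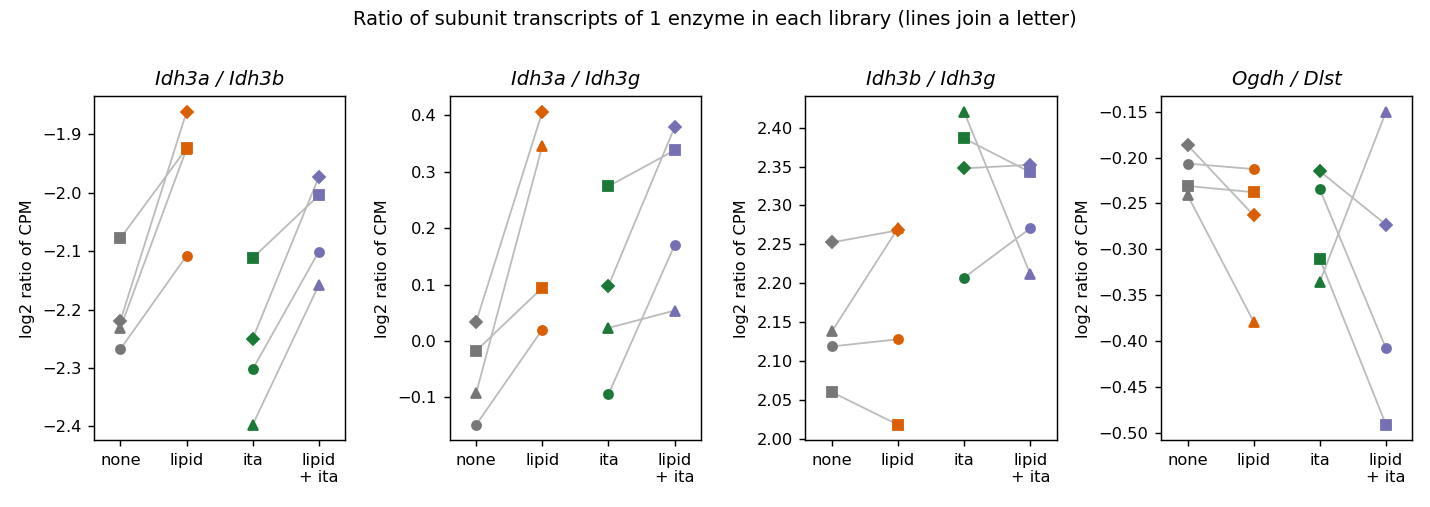
Log2 ratio of the CPM of 2 subunits of the same enzyme (y axis) in each library, by treatment (x axis), with lines joining libraries of the same letter without and with lipid. The lines for Idh3a to Idh3b and Idh3a to Idh3g all go up, 8 of 8 each, and those for Ogdh to Dlst go down in 7 of 8.

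Ogdh (ENSMUSG00000020456.17, chr11:6291633-6356642, plus strand) and Dlst (ENSMUSG00000004789.10, chr12:85110833-85134845, plus strand) encode the decarboxylating and the succinyl-transferring subunits of the 2-oxoglutarate dehydrogenase complex, which produces succinyl-CoA. Ogdh read 123, 119, 117 and 123 CPM in untreated and 117, 108, 104 and 114 CPM in lipid libraries A to D. It read 116, 105, 107 and 115 CPM with itaconate and 95.6, 92.3, 109.6 and 108 CPM with both. Every untreated library was above every library of the other groups, and with both treatments letters A and B were the lowest of all. Its log2 fold changes lay between −0.12 and −0.13 in the 4 comparisons and none passed. That for lipid in the presence of itaconate was −0.13 (SE 0.052, adjusted p = 0.0503), and that for lipid alone −0.12 (SE 0.052, adjusted p = 0.0626). Those for itaconate were −0.12 alone (SE 0.052, adjusted p = 0.177) and −0.13 with lipid (SE 0.052, adjusted p = 0.197).

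Dlst read 142, 139, 139 and 140.4 CPM in untreated libraries A to D, and every other library was lower, from 122 to 137 CPM. Its log2 fold changes were −0.066 with lipid (adjusted p = 0.152), −0.067 with itaconate (adjusted p = 0.308), −0.075 with itaconate on top of lipid (adjusted p = 0.302) and −0.075 with lipid on top of itaconate (adjusted p = 0.106). None passed. For itaconate alone, the untreated and treated libraries of Ogdh, Dlst and Idh3b did not overlap, 3 of 9 genes, as 7.53% of all genes did not. On top of lipid the groups overlapped for each of the 9 genes, while 5.82% of all genes did not overlap. The log2 ratio of Ogdh to Dlst was lower in 7 of 8 pairs with lipid and with itaconate, by 0.057 and 0.058 on average, and neither passed (permutation adjusted p = 0.312 for both).

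Fh1 (ENSMUSG00000026526.14, chr1:175600374-175625635, minus strand) encodes fumarase, which hydrates fumarate to malate. It read 74.8, 65.3, 63.9 and 62.5 CPM in untreated and 77.7, 77.9, 72.4 and 69.5 CPM in lipid libraries A to D. It read 74.3, 74.6, 61.8 and 60.5 CPM with itaconate and 71.5, 76.5, 55.8 and 63.1 CPM with both. Letters A and B were the higher ones in every group, and lipid + itaconate library C was the lowest of the 16. Fh1 rose with lipid by 0.16 on the log2 scale (SE 0.057, adjusted p = 0.0311), or 11.7%, in 4 of 4 letters, and by 0.11 without untreated library B, where it did not pass. In the presence of itaconate the log2 fold change with lipid was −0.024 (95% interval −0.15 to 0.097, adjusted p = 0.751), higher in 2 of 4 letters. Itaconate on top of lipid gave −0.16 (SE 0.057, adjusted p = 0.145), lower in 4 of 4 letters. The interaction was −0.18 (95% interval −0.36 to −0.013) with an unadjusted p of 0.0371 and an adjusted p of 0.545, so a difference in the lipid effect was not established. The span of Fh1 overlaps that of Kmo on the opposite strand, a gene at 20.5 to 36.3 CPM, but the annotated exons of the 2 genes share no base.

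Mdh2 (ENSMUSG00000019179.10, chr5:135778480-135790398, plus strand) encodes the malate dehydrogenase that closes the cycle. It read 232, 243, 282 and 269.8 CPM in untreated and 245, 247, 312 and 319 CPM in lipid libraries A to D. It read 216, 239, 252 and 256 CPM with itaconate and 252, 257, 272 and 299 CPM with both. Letters C and D were the higher ones in every group, and the excess over the same letter untreated was greatest in lipid library D. Mdh2 rose by 0.12 on the log2 scale with lipid (SE 0.048, adjusted p = 0.0456) and by 0.17 with lipid in the presence of itaconate (SE 0.048, adjusted p = 0.0103), or 12.2%. The call with lipid alone was lost in 10 of 23 alternative settings, and that in the presence of itaconate in 1 of 23. Itaconate alone gave −0.092 (SE 0.048, adjusted p = 0.283), lower in 4 of 4 letters, and did not pass.

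Summed over the 9 genes, the level was 965 ± 30.5 CPM in untreated, 939 ± 23.9 CPM in itaconate, 994 ± 54.2 CPM in lipid and 957 ± 34.7 CPM in lipid + itaconate libraries (SD, n = 4). The sum was lower with itaconate than without in 4 of 4 letters, and higher with lipid than without in 4 of 4 letters, for cells without the other treatment. With the other treatment present these directions did not hold in every letter. Letter B was higher with both treatments than with lipid (945 against 940 CPM), and letter C was lower with both than with itaconate (955 against 959 CPM). This sum is mostly Mdh2, Cs, Dlst, Idh3b and Ogdh and is given as a description.

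In the list of cytosolic enzymes and paralogs, 3 of 7 tested genes fell with lipid and none rose, against 23.7% and 23.8% of all genes. Idh1, the cytosolic NADP-dependent isocitrate dehydrogenase, fell by 0.69 on the log2 scale (adjusted p = 2.46e-08), Aco1, the cytosolic aconitase, by 0.48 (adjusted p = 2.63e-05), and Me1, cytosolic malic enzyme, by 0.28 (adjusted p = 0.000513). Acly, which splits citrate in the cytosol, fell by 0.26 with itaconate on top of lipid (adjusted p = 0.0278). The mitochondrial Idh2 and its cytosolic counterpart Idh1 thus moved in opposite directions with lipid, each in 4 of 4 letters.

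Among enzymes of the succinate steps, 1 of 7 was called with lipid, against 47.5% of all genes. Suclg2, the GTP-forming subunit of succinyl-CoA ligase, fell by 0.27 (adjusted p = 0.00194). Of the 13 genes of pyruvate entry, 3 rose and 6 fell with lipid, against 23.8% and 23.7% of all genes. Pdk4, a kinase that inactivates pyruvate dehydrogenase, fell by 1.34 on the log2 scale (adjusted p = 1.58e-08), and on top of lipid itaconate raised it by 0.47 (adjusted p = 0.0122). Pdp2, the phosphatase that reactivates the complex, fell by 0.49 (adjusted p = 3.58e-05). Within the pyruvate dehydrogenase itself, Pdhb rose by 0.71 (adjusted p = 0.000164) while Pdha1 fell by 0.30 (adjusted p = 0.000298). Itaconate alone lowered 1 of the 13, while 4.91% of all genes were called in either direction. This was Pdhx, a structural component of that complex, lower by 0.25 (adjusted p = 0.0391). Mpc1, a subunit of the mitochondrial pyruvate carrier, fell with lipid in the presence of itaconate by 0.28 (adjusted p = 0.000336). With lipid alone its log2 fold change was −0.141 (adjusted p = 0.0288).

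Of 13 genes of anaplerosis, which refills or drains cycle intermediates, 1 rose and 7 fell with lipid, against 23.8% and 23.7% of all genes. These shares also stand beside the lipid counts of the other lists in this paragraph. Pck2, mitochondrial phosphoenolpyruvate carboxykinase, rose by 0.80 (adjusted p = 3.56e-05). Mut, methylmalonyl-CoA mutase, fell by 0.39 (adjusted p = 1.48e-05), and Gpt2, mitochondrial alanine transaminase, fell by 0.40 (adjusted p = 0.000178). Pcx, pyruvate carboxylase, and Pccb, a propionyl-CoA carboxylase subunit, fell with lipid in the presence of itaconate, both by 0.32 (adjusted p = 0.00034 and 0.000227). With lipid alone both also fell, with log2 fold changes of −0.227 and −0.264 (adjusted p = 0.00395 and 0.0011). Of 7 genes of lipoylation and modifiers, 2 rose and 1 fell with lipid, among them Lias, the lipoic acid synthase, which makes the cofactor that Dlst carries, up by 0.42 (adjusted p = 6.07e-06). Sirt3, a mitochondrial deacetylase, rose with itaconate alone by 0.36 (adjusted p = 0.0328). Of 10 mitochondrial regulators, itaconate alone raised 1, while 4.91% of all genes were called in either direction. This was Ppargc1a, a coactivator of mitochondrial genes, higher by 0.69 (adjusted p = 0.0121). Lipid raised 1 and lowered 1 of the 10, and Myc, a transcription factor, fell by 0.34 (adjusted p = 6.53e-05).

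**Figure D4:**
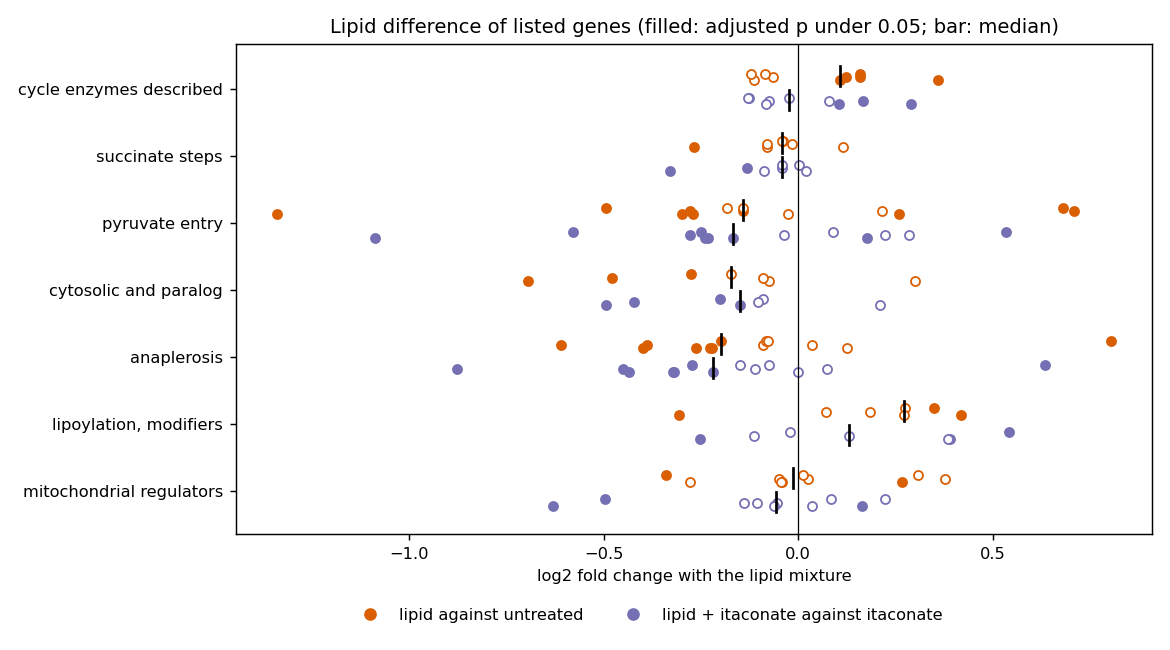
Log2 fold change with lipid (x axis) of the tested genes of each list (y axis), without itaconate (orange) and with it (purple); filled points have an adjusted p under 0.05 and bars are medians. The 9 cycle enzymes span −0.12 to 0.36 without itaconate, while pyruvate entry spans −1.34 to 0.71 and anaplerosis −0.61 to 0.80.

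For each of the 9, the gene with the most similar pattern was looked up over the 16 libraries among 9636 genes, after the letter effect was removed. Pearson's r was 0.98 for Cpb2 with Idh2, 0.97 for Dync1li1 with Idh3a, 0.97 for Sntb2 with Idh3b and 0.97 for Ganab with Ogdh. It was 0.96 for Plekha2 with Mdh2, and 0.95 for Tti2 with Cs and for Lce1d with Dlst. The lowest were 0.92 for Plbd2 with Idh3g and 0.88 for Rrm2b with Fh1. Between the members, r ranged from −0.78 for Idh3b with Mdh2 to 0.88 for Idh3a with Mdh2 and for Idh3g with Ogdh. These correlations share the treatment groups and are a description.

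The libraries carried hepatocyte markers at 31962 to 57574 CPM in sum over 8 genes. Alb, albumin, had a mean of 33508 CPM. With lipid 3 of the 8 hepatocyte markers fell and none rose, and their summed level was 35434 to 48090 CPM against 41088 to 57361 CPM untreated. With lipid in the presence of itaconate 5 fell and 1 rose. Of all genes tested, 23.7% fell and 23.8% rose with lipid, and 23.5% each in the presence of itaconate. These shares also stand beside the marker counts with lipid that follow. The 7 macrophage markers summed to 170.2 to 275 CPM untreated, 149 to 228 CPM with itaconate, 224 to 322 CPM with lipid and 211 to 315 CPM with both. With lipid 1 of the 6 tested macrophage markers rose and 2 fell, and in the presence of itaconate 1 rose and 5 fell. Itaconate alone raised 1 and lowered 1 of the 6, while 4.91% of all genes were called in either direction. On top of lipid itaconate changed 0 of the 6, against 2.58% of all genes. Most of the sum was Cd68 (mean 218 CPM), while Adgre1, Clec4f, Lyz2, Csf1r and Ptprc had means of 0.690 to 6.04 CPM and Cd5l 11.0 CPM. Stellate markers summed to at most 2.07 CPM in any library, and endothelial markers to 10.4 to 20.9 CPM, with 1 of 5 higher and 1 lower with lipid. The cholangiocyte list summed to 600.3 to 1171 CPM untreated and 336 to 609 CPM with lipid, almost wholly Spp1 and Sox9, while Krt19, Krt7 and Epcam had means of 0.298 CPM or less. The part of these shifts in the lipid results was not tested. In bulk libraries fewer cells of a type and less RNA per cell cannot be told apart. Counts from the mitochondrial genome made up 3.27% to 6.01% of a library, and library C of lipid + itaconate had the highest share. Without that library 7 of 9 members were called with lipid alone, Idh3b and Ogdh in addition. The share of all genes called in that fit is not given here.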

How the data were processed

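Poly(A) RNA of 16 hepatocyte cultures was sequenced with a stranded ligation kit. RSEM 1.3.1 gave the deposited expected counts of each gene, which are not normalized; the submitters' processing notes also name bcl2fastq 2.20, Cutadapt 1.18, STAR 2.7.0f, Picard 2.18.26 and mm10. The strand setting of the counting was not given in the sources used here. All 55450 identifiers matched GENCODE M21 (GRCm38), and 25282 genes had an expected count above 0 in a library. The counts of the 9 genes were whole, and others (5.41% of values) were rounded. Library totals were 22346049 to 35512004.

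Genes that averaged 1 CPM or more over the libraries were tested in R 4.3.3 with edgeR 4.0.16 (TMM, quasi-likelihood test, treatment and replicate letter as terms, all 16 libraries), with Benjamini-Hochberg adjustment over 11675 genes and a threshold of 0.05. DESeq2 1.42.0 and limma 3.58.1 were alternatives, as were RLE normalization, other filters, no replicate block, the 8 libraries of a comparison alone, and leaving out each library. CPM values are TMM-scaled and intervals are 95%. The letters come from the labels: deviations of same-letter libraries correlated in all 24 pairs (0.144 to 0.469), against a median of −0.114 for other letters, so the letter was kept. No 2 libraries of the same treatment agreed within counting noise. Lipid + itaconate library B differed most from its group, with a chi-square per gene of 103, 120 and 86.9 against A, C and D. Other pairs of the same treatment had at most 52.3. Scripts were tested on simulated data.

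Members and lists were chosen with earlier results of these data known. Every member is named; related genes are named by smallest p, at most 12 per comparison and 4 per list, among those with an adjusted p under 0.05. Suclg2 and Me1 were named beyond this rule after their values were seen. A result that needs a withheld item is not reported here.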

Additional observations from a re-analysis of the deposited data

How the results depend on the processing

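Of the 9 transcripts, 5 were called with lipid alone; without the replicate block 1 was (Idh2), and without a filter on low counts 3 were. With lipid in the presence of itaconate 4 were called, and 2 both without the block (Idh2 and Idh3b) and without a filter. For itaconate alone, 0 became 1 (Ogdh) with only the 8 libraries compared. That fit also called more of all genes than the main one did. The replicate block changed no other count. Without the block far fewer of all genes were called for itaconate alone, so the 0 there says little about the 9. The share of all genes called in each setting is not given here. The counts in this section thus show no change particular to the 9. Leaving out 1 library at a time gave 1 to 7 with lipid alone (1 without untreated D or lipid D, 2 without lipid C, 3 without untreated B, 7 without lipid + itaconate C) and 3 to 5 in the presence of itaconate. For itaconate on top of lipid it gave 0 to 1 (Ogdh, without lipid + itaconate C), and for itaconate alone and the interaction 0 throughout. Idh2 was called in each of these alternatives in both lipid comparisons. With RLE normalization and lipid alone, Mdh2 was lost and Idh3b gained. Signs turned, near 0, when a library was left out, for log2 differences that did not pass the test. With itaconate alone that of Cs ran from −0.028 to 0.0064, of Idh3a from −0.012 to 0.029 and of Fh1 from −0.033 to 0.048. On top of lipid that of Cs ran from −0.043 to 0.0069 and of Idh2 from −0.0081 to 0.062. With lipid in the presence of itaconate that of Fh1 ran from −0.075 to 0.031. The interaction ran from −0.031 to 0.023 for Cs, −0.024 to 0.078 for Idh3g, −0.067 to 0.033 for Ogdh and −0.038 to 0.013 for Dlst. The lipid difference of the log2 ratio of Idh3b to Idh3g, chosen after seeing the data, ran from −0.024 to 0.0028 without a letter and was 0.029 in libraries without itaconate. The causes were not tested. The 9 genes had 590 or more counts per library, and counting error is a part of the spread between libraries.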
